A study of Drosophila melanogaster with 4 samples.

Results

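Midguts of Drosophila melanogaster that had received uracil were compared at 16 h and at 2 h of treatment. Of 13585 genes in the deposited table, 6672 had a mean of at least 10 normalized counts over the uracil 16 h and uracil 2 h libraries. A gene was taken as higher or lower where log2((16 h + 1)/(2 h + 1)) of its normalized counts was at or beyond 1 in either direction. This gave 637 genes, 468 higher and 169 lower at 16 h, and these are described here by function. Each group had 1 library, so no difference between uracil 16 h and uracil 2 h has a test, and the values are a description of these libraries.

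The study holds 4 groups with 1 poly(A) RNA library each: uracil at 16 h, uracil at 2 h, no treatment at 16 h and no treatment at 2 h. All are midguts, sequenced as Illumina TruSeq libraries. The labels used here do not state the strain, sex or age of the flies, the dose of uracil, the hour of day or the number of midguts in a library. A normalized count is a number of reads divided by an effective library size, and levels are given below in that unit. Because the unit does not correct for gene length, levels are compared between libraries and not between genes. Folds are ratios of normalized counts, brackets after a fold hold its exact 95% interval from the reads, and such intervals cover counting error only.

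The fly midgut is lined by enterocytes, which secrete digestive proteases, carbohydrases and lipases and take up the products through membrane transporters. A chitin-rich sheet, the peritrophic matrix, separates the food from these cells. Uracil released by certain gut bacteria is known as a signal that makes the epithelium produce reactive oxygen through the oxidase Duox, a process linked to Hedgehog signalling and to endosomes. Renewal comes from intestinal stem cells, and enteroendocrine cells release peptide hormones. The midgut is divided along its length into regions kept by transcription factors, and the Malpighian tubules, the renal organ of the fly, join the gut at its posterior end.

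Reads in genes came to 8841796 at uracil 16 h, 8990316 at uracil 2 h, 16588143 at untreated 16 h and 8500378 at untreated 2 h. In the same order of libraries, 1 read equalled 0.111, 0.118, 0.0584 and 0.127 on the scale of the table. The enterocyte markers were abundant in all 4 libraries. The brush-border myosin gene Myo61F was at 1748 at uracil 16 h and 1659 at uracil 2 h, beside 1766 at untreated 16 h and 1895 at untreated 2 h. None of the 9 enterocyte markers tested was 2-fold apart with uracil. Over all tested genes that share was 9.55%, so 0 of 9 is near the background. Myo61F was the only marker above 0, and the other 8 lay below (median log2 ratio -0.47). Summed over the 10 enterocyte markers in the table, levels were 13895 at uracil 16 h and 19198 at uracil 2 h, beside 12346 at untreated 16 h and 20695 at untreated 2 h. In bulk RNA, fewer cells of a type and less RNA per cell cannot be told apart, which holds for every level below.

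Genes higher at uracil 16 h were more numerous than genes lower. The 468 higher genes were 7.01% of the genes tested and the 169 lower genes 2.53%, together 9.55%, so that 73.5% of the 637 were higher. At least 8-fold apart were 86 higher genes and 6 lower genes, and 37 genes were at least 16-fold higher while 0 were at least 16-fold lower on the log2(value + 1) scale. In the untreated libraries, 139 of the same 6672 genes were at least 2-fold higher at 16 h (2.08%) and 163 were lower (2.44%), together 4.53%. The filter on low values used the uracil libraries only. Genes high only in untreated guts were left out, so the uracil and untreated shares do not rest on a like choice of genes. Of the untreated genes 2-fold apart 46% were higher, a share that became 66.5% when each library was scaled to the same column total. That scaling moved the median log2 ratio of all tested genes to 0.06 with uracil and 0.18 without, against -0.05 and 0.03 as deposited.

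The same genes were then read in the untreated guts. Of the 468 higher genes, 92 (19.7%) were also at least 2-fold higher at untreated 16 h, against 2.08% of all tested genes, and 22 (4.7%) were lower there, against 2.44%. The remaining 354 (75.6%) lay within 2-fold, as did 95.5% of all tested genes. Of the 169 lower genes, 64 (37.9%) were also lower at untreated 16 h and 1 (0.592%) was higher. As a share of the untreated lists, the shared genes were 92 of 139 higher genes (66.2%) and 64 of 163 lower genes (39.3%). The lower genes had a median log2 ratio of -1.26 with uracil and -0.83 without, and the higher genes 1.72 with uracil and 0.38 without.

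**Figure D1:**
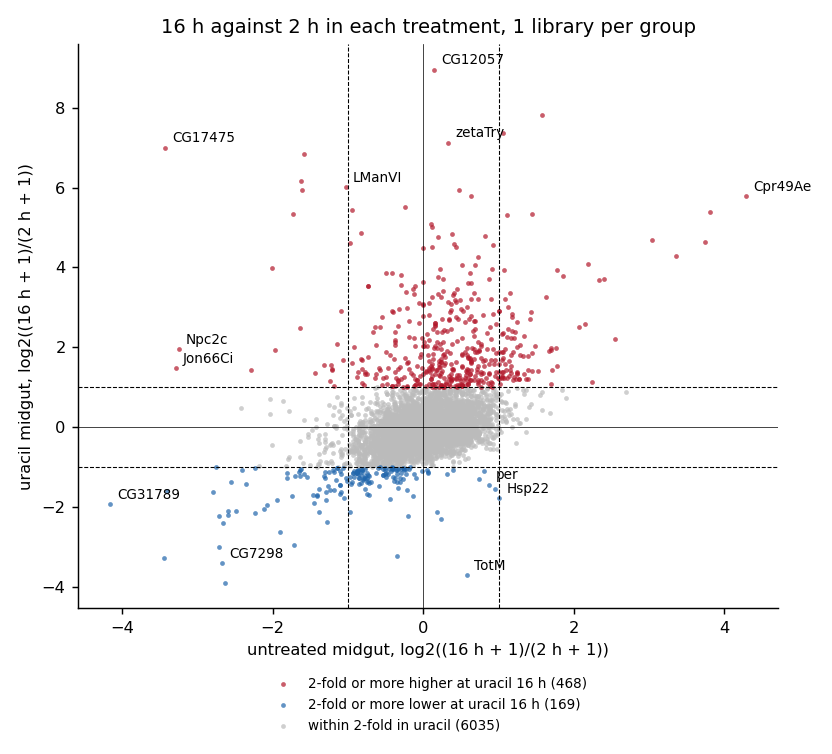
Log2((16 h + 1)/(2 h + 1)) of normalized counts in uracil-treated midgut (vertical axis) against the same ratio in untreated midgut (horizontal axis), 1 point per gene for the 6672 tested genes. Dashed lines mark 2-fold; the 468 higher genes lie above the upper line, mostly within 2-fold in untreated midgut, and the 169 lower genes lie mostly to the left of 0.

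The levels behind these ratios are a description, since the uracil values chose the genes. Median levels of the higher genes were 66.2 at uracil 16 h and 13.5 at uracil 2 h, beside 23.5 at untreated 16 h and 17.4 at untreated 2 h. For the lower genes the medians were 57 at uracil 16 h and 151 at uracil 2 h, beside 67.4 at untreated 16 h and 113 at untreated 2 h. Many higher genes were scarce at the early time: 187 of the 468 (40%) were under 10 normalized counts at uracil 2 h, 8 of them with 1 to 3 reads and 2 with no read.

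The gene furthest apart was CG12057 (FBgn0030098, chromosome X, 9191657 to 9192548 in BDGP6.54), at 1088 at uracil 16 h and 1.18 at uracil 2 h, beside 232 at untreated 16 h and 211 at untreated 2 h. It was 921-fold higher at uracil 16 h (501 to 1921), and its uracil 2 h level, from 10 reads, stood apart from the other 3 libraries. At the threshold, CG14253 lay just inside with a log2 ratio of 1.003 (25.4 at uracil 16 h and 12.2 at uracil 2 h), and the peptide hormone gene Dh31 just outside with 0.997 (19.6 at uracil 16 h and 9.33 at uracil 2 h). On the lower side CG10550 lay just inside (107 at uracil 16 h and 214 at uracil 2 h), and the lipoprotein receptor gene LpR1 just outside (369 at uracil 16 h and 739 at uracil 2 h).

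Digestive proteases and peptidases included genes far apart in both directions. A row of neighbouring serine protease genes on chromosome 3R, listed after their values were seen and lying between 17128212 and 17135283 in BDGP6.54, held 5 genes that were higher at uracil 16 h: CG31265, CG17475, CG4053, CG31266 and CG31267. CG17475 was at 142 at uracil 16 h and 0.118 at uracil 2 h, beside 0.0584 at untreated 16 h and 10.4 at untreated 2 h. Its level rested on 1 read at uracil 2 h, with a ratio of 1201 (215 to 47455). CG31266 was at 127 at uracil 16 h and 0.118 at uracil 2 h, beside 2.16 at untreated 16 h and 8.5 at untreated 2 h. CG31267, with more reads at the early time, was 19.5-fold higher (13.8 to 28.4), at 78.4 at uracil 16 h and 4.02 at uracil 2 h, beside 1.46 at untreated 16 h and 8.88 at untreated 2 h. All 5 were highest at uracil 16 h and at least 2-fold lower at untreated 16 h than at untreated 2 h. CG31265 had no read at uracil 2 h. The lower bound of its exact interval was 164-fold higher at 16 h. Against a floor of 3 reads in that library the ratio was 202. A further protease gene of the family in the same stretch of the chromosome, CG5246, was lower, at 234 at uracil 16 h and 697 at uracil 2 h, beside 303 at untreated 16 h and 354 at untreated 2 h.

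Trypsin-type genes were split by direction. Of 12 tested, 4 were at least 2-fold higher and 2 were lower, against 7.01% and 2.53% of all tested genes. The log2 ratios of the 12 had a median of 0.36, against -0.05 over all tested genes. zetaTry was at 156 at uracil 16 h and 0.118 at uracil 2 h, beside 23.5 at untreated 16 h and 18.5 at untreated 2 h. Ser8 was 32-fold higher (24.2 to 43.3), at 189 at uracil 16 h and 5.91 at uracil 2 h, beside 15.1 at untreated 16 h and 8.12 at untreated 2 h. For both genes uracil 16 h was far above the other 3 libraries. iotaTry (146 at uracil 16 h and 8.51 at uracil 2 h) and lambdaTry (552 at uracil 16 h and 106 at uracil 2 h) had the same pattern, with untreated 16 h within 2-fold of untreated 2 h. The members lower at uracil 16 h, thetaTry (573 at uracil 16 h and 1175 at uracil 2 h) and epsilonTry (1821 at uracil 16 h and 3993 at uracil 2 h), were lower at untreated 16 h too. The close copies alphaTry and betaTry stayed within 2-fold with uracil, and reads of such copies may be split between them.

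Jonah genes encode chymotrypsin-like proteases of the gut, and the 15 tested also went both ways. With uracil 6 were higher and 3 lower (median -0.33), whereas without it 0 were higher and 11 lower (median -1.20). The shares over all tested genes were 7.01% higher and 2.53% lower with uracil, and 2.08% and 2.44% without it. Jon66Ci was at 118 at uracil 16 h and 41.7 at uracil 2 h, beside 17.5 at untreated 16 h and 180 at untreated 2 h. Jon99Fi was at 2243 at uracil 16 h and 739 at uracil 2 h, beside 716 at untreated 16 h and 1384 at untreated 2 h. In both genes the time course with uracil ran opposite to that without. Jon25Bii was 3.59-fold lower (3.51 to 3.68), at 959 at uracil 16 h and 3448 at uracil 2 h, beside 990 at untreated 16 h and 3812 at untreated 2 h, so that the treatments were alike for this gene. Summed over the 16 Jonah genes in the table, levels were 23497 at uracil 16 h and 33986 at uracil 2 h, beside 17337 at untreated 16 h and 39446 at untreated 2 h.

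**Figure D2:**
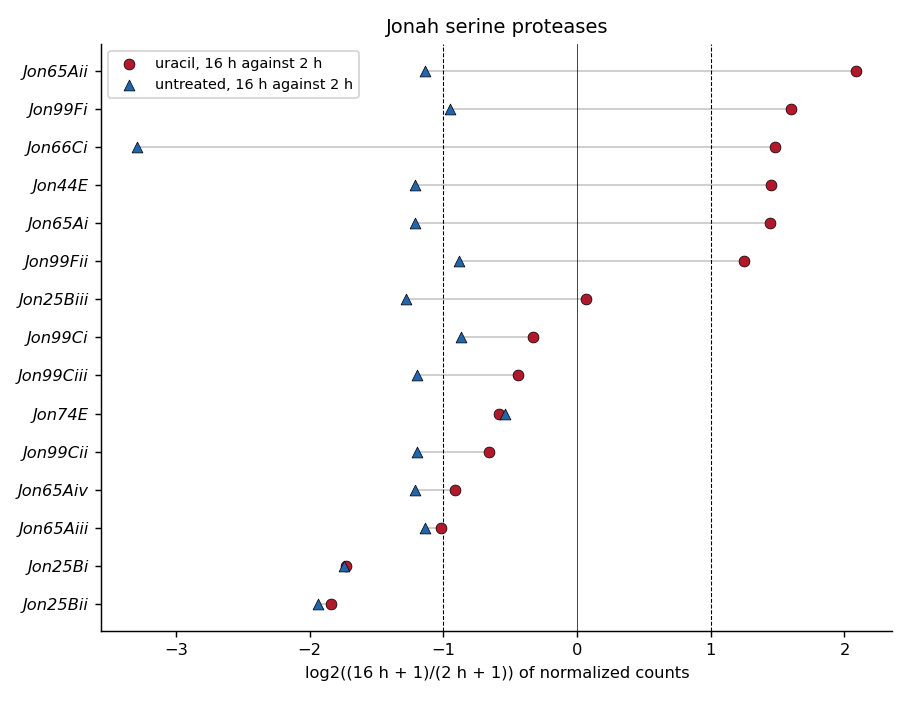
Log2((16 h + 1)/(2 h + 1)) of normalized counts for the 15 tested Jonah genes, with uracil (circles) and without (triangles), 1 library per group; dashed lines mark 2-fold. From Jon65Aii down to Jon99Fii the circles lie to the right of 1 while the triangles lie left of 0, and for Jon25Bi and Jon25Bii both symbols nearly coincide.

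Zinc carboxypeptidases, which trim amino acids from the ends of peptides, stood higher: 7 of 12 tested were at least 2-fold higher and 0 lower (median 1.79), in a list added after values were seen. Among all tested genes 7.01% were higher and 2.53% lower. CG18585 was at 301 at uracil 16 h and 0.827 at uracil 2 h, beside 51.9 at untreated 16 h and 24.3 at untreated 2 h. CG7025 was at 226 at uracil 16 h and had no read at uracil 2 h. It was at 27.1 at untreated 16 h and 8.37 at untreated 2 h. The lower bound of its exact interval was 518-fold higher at uracil 16 h, and the ratio against the floor of 3 reads was 638. Uracil 2 h was the lowest library for 8 of the 12, against 22.6% of all tested genes and 58.5% of the higher genes. The genes CG8562, CG18417 and CG8560 lie side by side on chromosome 3L, and CG8560 was at 1595 at uracil 16 h and 360 at uracil 2 h, beside 621 at untreated 16 h and 618 at untreated 2 h.

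Smaller peptidase families had the same direction in some members, where 7.01% of all tested genes were higher. Of 4 astacin metalloprotease genes tested, CG15254 (84.2 at uracil 16 h and 2.48 at uracil 2 h) and CG15253 (31.4 at uracil 16 h and 0.354, or 3 reads, at uracil 2 h) were higher and the other 2 were within 2-fold. Of 4 aminoacylase genes of a cluster on chromosome 3R, 3 were higher, with a median of 3.22 over the 4. CG6726, which overlaps CG17110 on the same strand, was at 288 at uracil 16 h and 30.8 at uracil 2 h, beside 106 at untreated 16 h and 75.7 at untreated 2 h. The neprilysin gene Nep1, a membrane metallopeptidase, was 14.5-fold higher (10.6 to 20.4), at 72.1 at uracil 16 h and 4.96 at uracil 2 h.

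Carbohydrate digestion genes were higher or within 2-fold. Of 20 tested, 10 were at least 2-fold higher and 0 were lower (median 0.95), and in the untreated libraries 3 were higher and 1 lower (median 0.35). Over all tested genes 7.01% were higher and 2.53% lower with uracil, and 2.08% and 2.44% without it. The lysosomal alpha-mannosidase genes, whose products remove mannose from glycoproteins, held the widest gaps. LManVI was at 2054 at uracil 16 h and 30.8 at uracil 2 h, beside 168 at untreated 16 h and 345 at untreated 2 h, a 66.6-fold difference with uracil (58.9 to 75.6). LManV was at 1072 at uracil 16 h and 16.5 at uracil 2 h, beside 109 at untreated 16 h and 78.4 at untreated 2 h. LManIII, LManV and LManVI lie together on chromosome 2L between 8765273 and 8781252, and for all 3 uracil 16 h was the highest library and uracil 2 h the lowest. The maltase genes did not share a single order of the libraries. Mal-A3 was at 342 at uracil 16 h and 13.6 at uracil 2 h, beside 50.1 at untreated 16 h and 26 at untreated 2 h. Mal-A7 was at 891 at uracil 16 h and 225 at uracil 2 h, beside 1087 at untreated 16 h and 337 at untreated 2 h, and Mal-A2 and Mal-A4 were likewise higher at 16 h in both treatments. The alpha-amylase gene Amy-p was within 2-fold, at 1123 at uracil 16 h and 1856 at uracil 2 h.

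Genes for lipid digestion and sterol uptake had 6 of 12 members higher and 0 lower (median 0.90), against 7.01% and 2.53% of all tested genes. Npc2d, of the Niemann-Pick type C2 family of sterol-binding proteins, was 28.6-fold higher (24.2 to 34.2), at 467 at uracil 16 h and 16.3 at uracil 2 h, beside 50.7 at untreated 16 h and 44 at untreated 2 h. Its relative Npc2c was at 66.7 at uracil 16 h and 16.5 at uracil 2 h, beside 2.04 at untreated 16 h and 27.9 at untreated 2 h. The scavenger receptor gene ninaD, needed for carotenoid uptake, was at 51.1 at uracil 16 h and 0.236 at uracil 2 h, beside 16.5 at untreated 16 h and 0.254 at untreated 2 h. These 3 genes had different orders of the libraries: Npc2d was highest at uracil 16 h and lowest at uracil 2 h, Npc2c was lower at untreated 16 h, and ninaD was higher at 16 h in both treatments. The related receptor genes santa-maria (88.5 at uracil 16 h and 24.7 at uracil 2 h) and emp (193 at uracil 16 h and 48.9 at uracil 2 h) were higher too.

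**Figure D3:**
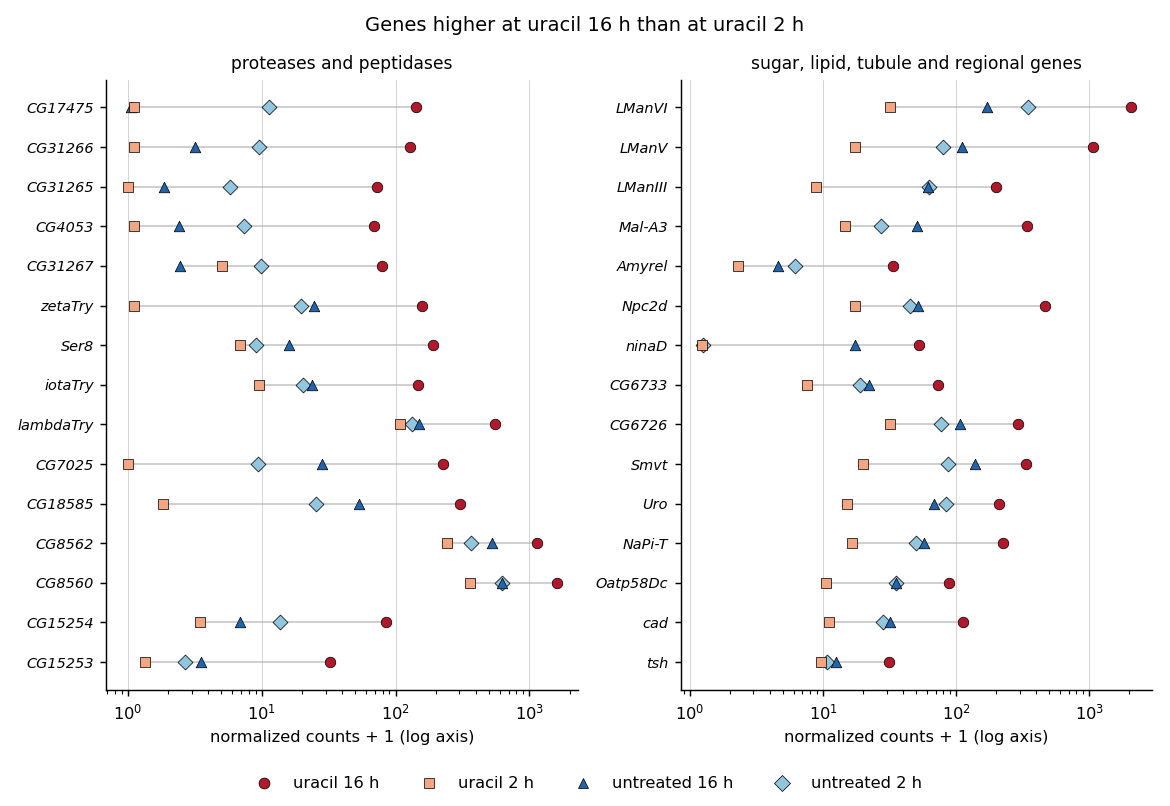
Normalized counts + 1 (log axis) of 30 named genes that were at least 2-fold higher at uracil 16 h, 1 library per symbol, with proteases and peptidases on the left and sugar, lipid, tubule and regional genes on the right. The dark red circle of uracil 16 h is the rightmost symbol in every row, and the orange square of uracil 2 h is the leftmost in most rows, for example 30.8 against 345 at untreated 2 h for LManVI.

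Malpighian tubule markers stood higher in the same library as these digestive genes. Of 12 tubule markers tested, 8 were at least 2-fold higher at uracil 16 h and 0 lower (median 2.10), while 0 were 2-fold apart without uracil (median 0.09). Over all tested genes 7.01% were higher and 2.53% lower with uracil. Without it 4.53% were 2-fold apart, so 0 of 12 is near the background there. The urate oxidase gene Uro was at 210 at uracil 16 h and 14.2 at uracil 2 h, beside 67.2 at untreated 16 h and 82.6 at untreated 2 h. The phosphate transporter gene NaPi-T was at 224 at uracil 16 h and 15.6 at uracil 2 h, beside 56.4 at untreated 16 h and 49 at untreated 2 h. As in many digestive genes, uracil 2 h was the lowest library for 8 of the 12 markers. It was the lowest for 22.6% of all tested genes and 58.5% of the 468 higher genes. Since the uracil ratio chose the higher genes, a low place of uracil 2 h is partly set by that choice. Over the 16 markers in the table, none of which was at 0 in all libraries, the summed level was 2222 at uracil 16 h and 1386 at uracil 2 h, beside 1280 at untreated 16 h and 1891 at untreated 2 h. The transporter gene MRP made up a large part of that sum, at 749 at uracil 16 h and 1063 at uracil 2 h. How much tubule tissue each library held was not measured otherwise, and its part in the results on digestive enzymes and transporters was not tested.

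Among transcription factors that mark gut regions, 3 of 13 were higher and 1 lower (median -0.18), against 7.01% and 2.53% of all tested genes. The posterior factor gene cad was 11-fold higher (8.83 to 13.9), at 111 at uracil 16 h and 10 at uracil 2 h, beside 31 at untreated 16 h and 27.1 at untreated 2 h. The gene tsh, which is also in the tubule list, was at 30.5 at uracil 16 h and 8.62 at uracil 2 h, beside 11.5 at untreated 16 h and 9.64 at untreated 2 h. Both were lowest at uracil 2 h. The gene odd was lower, at 143 at uracil 16 h and 324 at uracil 2 h, beside 224 at untreated 16 h and 319 at untreated 2 h. The 5 copper cell markers, of the acid-secreting middle region, were all within 2-fold and all below 0 (median -0.34). With 9.55% of all tested genes 2-fold apart, the lack of calls in so short a list is near the background.

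Membrane transporters had higher members in several families. SLC2 sugar transporters had 6 of 15 higher and 0 lower (median 0.74), and SLC22 organic ion transporters 6 of 14 higher and 0 lower (median 0.54). Over all tested genes 7.01% were higher and 2.53% lower. The SLC lists were added after values were seen. In the organic anion and cation transporter list, fixed earlier, 2 of 8 were higher and 0 lower (median 0.10). CG7882, of the SLC2 family, was at 165 at uracil 16 h and 18 at uracil 2 h, beside 54.4 at untreated 16 h and 40.1 at untreated 2 h. CG1208 differed from it in being higher at 16 h in both treatments, at 282 at uracil 16 h and 48.4 at uracil 2 h, beside 272 at untreated 16 h and 64 at untreated 2 h. SLC5 sodium-coupled transporters went both ways, with 3 of 7 higher and 1 lower and a median of -0.04 that turned to 0.07 when libraries were scaled to the same column total and to 0.01 when centred on the median gene. Smvt, which is also a tubule marker, was at 334 at uracil 16 h and 19 at uracil 2 h, beside 138 at untreated 16 h and 85.1 at untreated 2 h. CG7720 was the lower member, at 96.3 at uracil 16 h and 284 at uracil 2 h, beside 39.8 at untreated 16 h and 20.2 at untreated 2 h, so that the early uracil library stood highest. Neighbouring transporter genes were called together in 3 places: CG15406, CG8837, CG3285 and CG15408 on 2L, CG17751, CG17752, CG16727 and CG6231 on 3R, and salt, CG2187 and Smvt at the end of 3R.

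**Figure D4:**
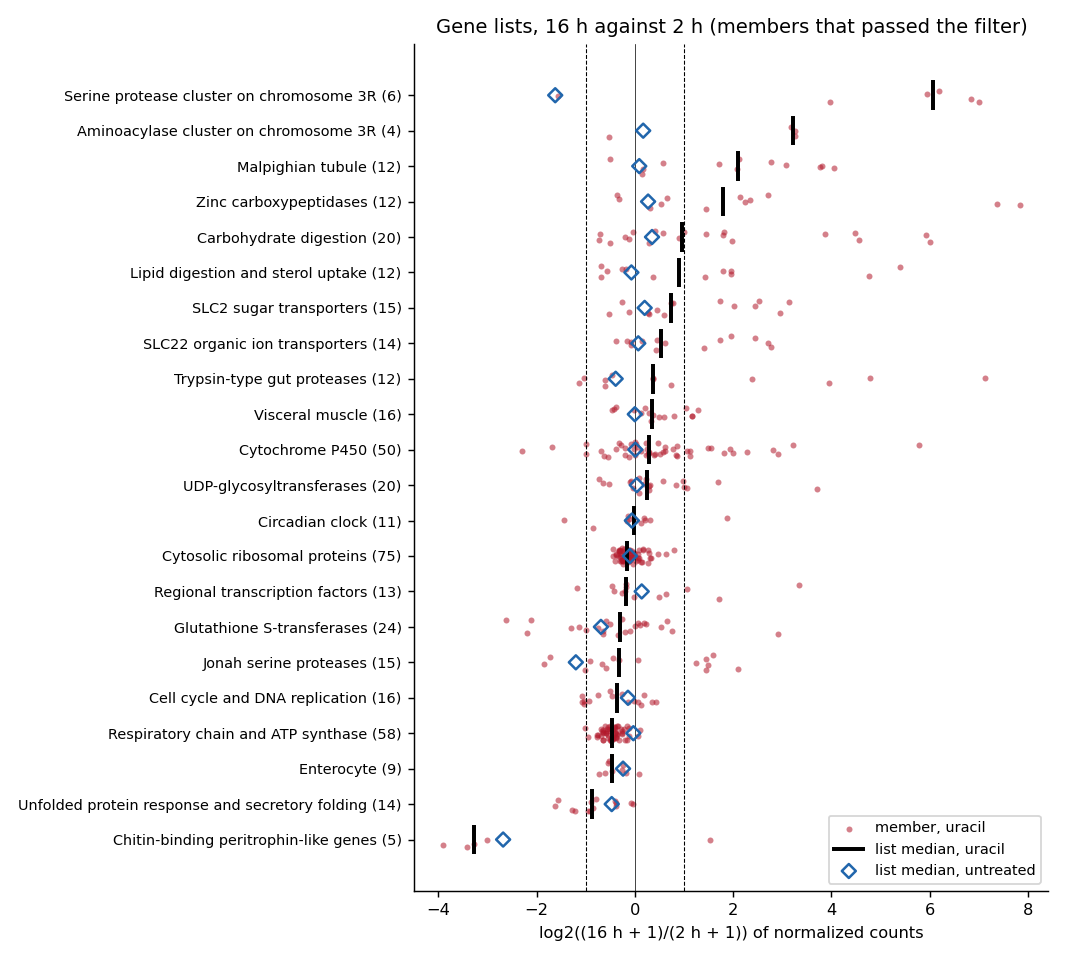
Log2((16 h + 1)/(2 h + 1)) of normalized counts by gene list, with 1 point per tested member with uracil, a bar at the list median with uracil and a diamond at the list median without; the number of tested members is in brackets and dashed lines mark 2-fold. Serine protease cluster, aminoacylase, tubule and carboxypeptidase medians with uracil lie to the right of 1, while the chitin-binding median lies near -3.28 with uracil and -2.68 without.

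Detoxification families did not share a direction. Cytochrome P450 genes, which oxidise foreign compounds, hormones and lipids, had 13 of 50 members higher and 2 lower (median 0.29), against 1 higher and 5 lower without uracil. The shares over all tested genes were 7.01% higher and 2.53% lower with uracil, and 2.08% and 2.44% without. Counts of 0, 1 or 2 in these families are near those shares. Cyp4d1 was at 93.6 at uracil 16 h and 0.709 at uracil 2 h, beside 10.8 at untreated 16 h and 6.59 at untreated 2 h. Cyp6a17 was lower, at 5.43 at uracil 16 h and 30.6 at uracil 2 h, beside 17 at untreated 16 h and 14.3 at untreated 2 h. UDP-glycosyltransferase genes, which attach sugars to such compounds, had 4 of 20 higher and 0 lower, with Ugt35B1 15.1-fold higher (11.3 to 20.7). Glutathione S-transferase genes leaned the other way, with 1 of 24 higher and 5 lower (median -0.30, and -0.69 without uracil). GstD8 was 6.82-fold lower (5.27 to 8.94), at 7.54 at uracil 16 h and 51.4 at uracil 2 h, beside 13.8 at untreated 16 h and 54.4 at untreated 2 h. The neighbours GstD10, GstD9 and GstD1 were lower at 16 h in both treatments, while GstE10 was higher with uracil, at 21.6 at uracil 16 h and 2.01 at uracil 2 h.

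The gut lining showed both directions, where 7.01% of all tested genes were higher and 2.53% lower. Mucin genes, which encode heavily glycosylated proteins of the mucus layer, had 3 of 8 higher and 2 lower. Muc68D was at 2808 at uracil 16 h and 641 at uracil 2 h, beside 881 at untreated 16 h and 737 at untreated 2 h. Muc11A and Mur18B were 5.48-fold (5.16 to 5.83) and 5.28-fold (4.97 to 5.6) higher, and Muc14A was lower at 16 h in both treatments. Peritrophic matrix and chitin turnover genes were mostly on the higher side, with 4 of 10 tested at least 2-fold higher, 1 lower and 8 above 0 (median 0.82). The chitinase gene Cht9 was at 75.7 at uracil 16 h and 16.7 at uracil 2 h, beside 16.4 at untreated 16 h and 14.3 at untreated 2 h. The matrix protein gene Peritrophin-15b was the lower member, at 59.4 at uracil 16 h and 130 at uracil 2 h, beside 52.2 at untreated 16 h and 113 at untreated 2 h. A separate list of peritrophin-like chitin-binding genes, added after values were seen, went the other way, with 4 of 5 tested members lower and 1 higher. CG7298 was 10.7-fold lower (9.94 to 11.6), at 82 at uracil 16 h and 879 at uracil 2 h, beside 116 at untreated 16 h and 750 at untreated 2 h. CG32302 had the lowest log2 ratio of all tested genes at -3.90, with 4.77 at uracil 16 h and 85.1 at uracil 2 h, beside 8.35 at untreated 16 h and 57.3 at untreated 2 h. These genes were lower at 16 h in both treatments. The fifth, CG10725, was higher, at 194 at uracil 16 h and 66.8 at uracil 2 h. Of 6 lysozyme genes 3 were lower and 1 higher, LysX at 39 at uracil 16 h and 130 at uracil 2 h, and LysP at 18.3 at uracil 16 h and 2.72 at uracil 2 h.

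Stress genes were mostly on the lower side. All 14 tested genes of the unfolded protein response and of protein folding in the secretory pathway had a log2 ratio below 0 with uracil (median -0.87). Of these, 4 were at least 2-fold lower, against 2.53% of all tested genes, whose median was -0.05. Without uracil the median of the 14 was -0.47. The endoplasmic reticulum chaperone gene Gp93 was 2.96-fold lower (2.85 to 3.08), at 371 at uracil 16 h and 1099 at uracil 2 h, beside 466 at untreated 16 h and 802 at untreated 2 h. Hsc70-3, which encodes the chaperone BiP, was at 689 at uracil 16 h and 1591 at uracil 2 h, beside 873 at untreated 16 h and 1263 at untreated 2 h. Both followed 1 order of libraries, highest at uracil 2 h and lowest at uracil 16 h. Of 11 heat shock protein and chaperone genes tested, 4 were lower and 0 higher with uracil (median -0.35), and 2 lay above 0. Without uracil 1 was higher and 1 lower (median 0.18). The 4 lower genes included the small heat shock protein genes Hsp22, Hsp26 and Hsp27, neighbours on 3L. Hsp26 was at 14.1 at uracil 16 h and 65.7 at uracil 2 h, beside 18.8 at untreated 16 h and 16.5 at untreated 2 h. Hsp22, which overlaps another gene on the same strand, went the other way without uracil. It was at 4.99 at uracil 16 h and 19.7 at uracil 2 h, beside 22 at untreated 16 h and 10.4 at untreated 2 h.

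TotM, a stress-induced gene of the Turandot family, was 13.9-fold lower (11.6 to 16.8), at 14.1 at uracil 16 h and 196 at uracil 2 h, beside 45.1 at untreated 16 h and 29.8 at untreated 2 h. Only the early uracil library was high. The transferrin gene Tsf1, which encodes an iron-binding protein, was 11.7-fold lower (8.22 to 17.1), at 3.77 at uracil 16 h and 44.1 at uracil 2 h, beside 21.6 at untreated 16 h and 27.8 at untreated 2 h. Of the 24 metal-handling genes tested, 5 were at least 2-fold higher and 2, Tsf1 among them, lower. Over all tested genes the shares were 7.01% and 2.53%. A log2 ratio above 0 was found in 16 of the 24. MtnA, a metallothionein gene, was at 555 at uracil 16 h and 121 at uracil 2 h, beside 194 at untreated 16 h and 252 at untreated 2 h.

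**Figure D5:**
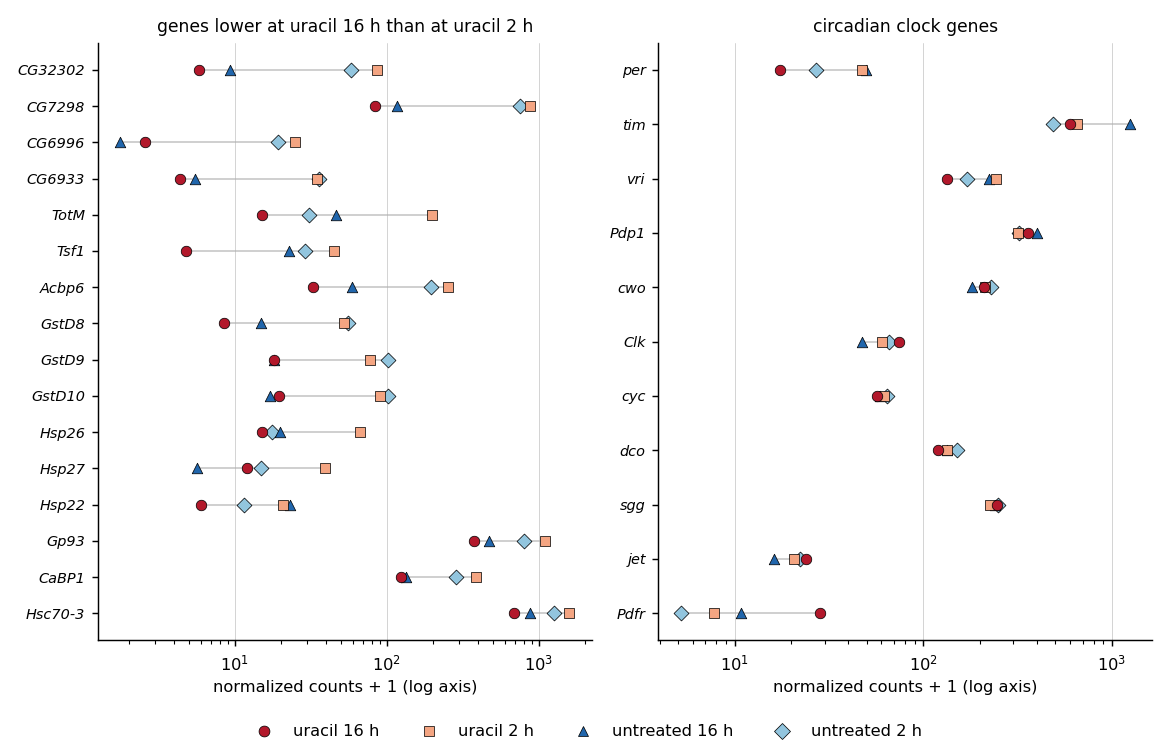
Normalized counts + 1 (log axis) of 16 named genes that were at least 2-fold lower at uracil 16 h (left) and of the 11 circadian clock genes tested (right), 1 library per symbol. On the left uracil 16 h lies below uracil 2 h in every row, and on the right per, tim and vri have different orders of the 4 libraries while most other clock genes cluster.

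Genes tied to the known signalling of uracil were mostly within 2-fold, as were all but 9.55% of the tested genes, so that counts of 0 or 1 in lists this short are near the background. None of 10 Hedgehog pathway genes, 7 epidermal growth factor receptor pathway genes or 10 regulators of stem cells and progenitors was 2-fold apart. Below the filter, the Hedgehog transcription factor gene ci was at 11.3 at uracil 16 h and 2.48 at uracil 2 h, beside 4.73 at untreated 16 h and 3.68 at untreated 2 h. The cadherin gene Cad99C had 29 reads at uracil 16 h and 2 at uracil 2 h, beside 19 at untreated 16 h and 1 at untreated 2 h. These are reads and not normalized counts: in that order of libraries 1 read equalled 0.111, 0.118, 0.0584 and 0.127. In the list on Duox and reactive oxygen 1 of 20 was higher, the oxidase gene Nox, at 20.3 at uracil 16 h and 4.84 at uracil 2 h, beside 12.7 at untreated 16 h and 5.58 at untreated 2 h. Of the 13 genes for pyrimidine breakdown, synthesis and nucleoside transport, 3 were higher and 0 lower. The breakdown gene pyd3, for beta-ureidopropionase, was 6.09-fold higher (4.64 to 8.12), at 43.9 at uracil 16 h and 7.21 at uracil 2 h, beside 16.9 at untreated 16 h and 12.8 at untreated 2 h. CRMP, for dihydropyrimidinase, was at 20.7 at uracil 16 h and 8.27 at uracil 2 h, beside 8.18 at untreated 16 h and 10.8 at untreated 2 h. Both had their highest level at uracil 16 h. Ent3, a nucleoside transporter gene, was at 33.7 at uracil 16 h and 14.7 at uracil 2 h, beside 6.89 at untreated 16 h and 17.6 at untreated 2 h.

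Of 16 peptidoglycan recognition and IMD pathway genes 3 were higher and 0 lower, against 7.01% higher and 2.53% lower over all tested genes, namely cad and the amidase genes PGRP-SC1b and PGRP-SC1a, whose products degrade peptidoglycan. PGRP-SC1b was at 130 at uracil 16 h and 33 at uracil 2 h, beside 18.6 at untreated 16 h and 75.7 at untreated 2 h. PGRP-SC1a and PGRP-SC1b are close copies, so that the split of reads between them is uncertain. None of 20 antimicrobial peptide genes passed the filter, and their summed level was 7.87 at uracil 16 h and 22 at uracil 2 h, beside 11.3 at untreated 16 h and 18.9 at untreated 2 h.

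Cell cycle genes had 4 of 16 tested members lower and 0 higher (median -0.37), against 2.53% and 7.01% of all tested genes. These calls lay near the threshold: 0 of the 16 were lower when libraries were scaled to the same column total or with a pseudocount of 10, and 2 when centred on the median gene. The mitotic cyclin gene CycB was 2.14-fold lower (1.88 to 2.44), at 38.9 at uracil 16 h and 83.3 at uracil 2 h, beside 2.98 at untreated 16 h and 20.2 at untreated 2 h. CycA, RnrL and PCNA were the other members lower, with PCNA at 7.87 at uracil 16 h and 17.2 at uracil 2 h. Oocyte genes were present in the same libraries. Over the 19 markers of oocyte, eggshell and piRNA in the table, of which 3 passed the filter and Vm32E and Cp7Fb were at 0 in all, the summed level was 97.9 at uracil 16 h and 77.7 at uracil 2 h, beside 10.7 at untreated 16 h and 28.5 at untreated 2 h. For both CycB and this sum the uracil libraries stood above the untreated library of the same time, and the part of oocyte RNA in the cell cycle values was not tested.

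Core metabolism genes were mostly within 2-fold, as were all but 9.55% of the tested genes. Counts of 0 in the shorter lists are therefore near that share. None of 75 cytosolic ribosomal protein genes (median -0.15), 31 proteasome genes (-0.27), 17 tricarboxylic acid cycle genes (-0.26) or 14 glycolysis and pentose phosphate genes (0.16) was 2-fold apart with uracil. Of 58 respiratory chain and ATP synthase genes 56 had a log2 ratio below 0, with a median of -0.46 with uracil and -0.03 without, and 1, ND-B14.5A, was 2-fold lower. Lipogenesis and lipid droplet genes had 3 of 15 higher and 1 lower. The lipid droplet coat gene Lsd-1 was at 34 at uracil 16 h and 9.81 at uracil 2 h, beside 8.94 at untreated 16 h and 12 at untreated 2 h. The triglyceride lipase gene bmm was at 275 at uracil 16 h and 567 at uracil 2 h, beside 214 at untreated 16 h and 661 at untreated 2 h, lower at 16 h in both treatments.

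Markers of other cell types are read against the 7.01% of all tested genes that were higher. Enteroendocrine genes had 2 of 12 higher, the hormone genes CCHa1 (17.9 at uracil 16 h and 4.37 at uracil 2 h) and AstC (161 at uracil 16 h and 70.7 at uracil 2 h), with a median of -0.09 that turned to 0.02 under scaling to the same column total. Visceral muscle genes had 4 of 16 higher, among them the titin-like gene sls, at 333 at uracil 16 h and 147 at uracil 2 h, beside 147 at untreated 16 h and 63.9 at untreated 2 h. The summed level of the 16 muscle genes was 4206 at uracil 16 h and 3257 at uracil 2 h, beside 2267 at untreated 16 h and 2217 at untreated 2 h. Fat body markers had 3 of 7 higher, hemocyte markers 1 of 5 and the neuron list 1 of 2 lower. The storage protein gene Lsp1gamma, a fat body marker, was at 31.8 at uracil 16 h and 5.32 at uracil 2 h, beside 4.44 at untreated 16 h and 6.09 at untreated 2 h. The part of these cell types in other results was not tested.

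Of 19 genes of the starvation, insulin and TOR response 1 was higher and 2 were lower (median 0.02), against 9.55% of all tested genes 2-fold apart. The gluconeogenesis gene Pepck2 was at 46.1 at uracil 16 h and 16.2 at uracil 2 h, beside 12.5 at untreated 16 h and 16 at untreated 2 h. ImpL2, which encodes a protein that binds and holds back insulin-like peptides, was at 20.8 at uracil 16 h and 46.1 at uracil 2 h, beside 40.3 at untreated 16 h and 22.6 at untreated 2 h. The activin-like ligand gene daw was at 57.7 at uracil 16 h and 131 at uracil 2 h, beside 63.8 at untreated 16 h and 88.6 at untreated 2 h. ImpL2 and daw were both highest at uracil 2 h and lowest at uracil 16 h. The acyl-CoA binding gene Acbp6 was 7.94-fold lower (7.01 to 9.01), at 31.8 at uracil 16 h and 253 at uracil 2 h, beside 58.3 at untreated 16 h and 195 at untreated 2 h, so that it was lower at 16 h in both treatments.

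Ecdysteroid kinase-like genes, named for relatives that phosphorylate the moulting hormone, had 6 of 34 higher and 5 lower (median -0.24). Over all tested genes 7.01% were higher and 2.53% lower, and this list was added after values were seen. CG10560 was at 107 at uracil 16 h and 10 at uracil 2 h, beside 46.5 at untreated 16 h and 35 at untreated 2 h. CG11892 was at 306 at uracil 16 h and 39.6 at uracil 2 h, beside 62.4 at untreated 16 h and 83.8 at untreated 2 h. Both were lowest at uracil 2 h. In the SLC17 anion transporter family, also listed after values were seen, 2 of 14 were higher and 1 lower. For so short a list this is near the shares over all tested genes. Its member CG7881 was at 91.4 at uracil 16 h and 2.24 at uracil 2 h, beside 14.5 at untreated 16 h and 10.9 at untreated 2 h. The lower SLC17 member CG12490 was at 5.32 at uracil 16 h and 28.7 at uracil 2 h, beside 2.75 at untreated 16 h and 23.7 at untreated 2 h. A run of 5 genes on 2L between 13842888 and 13850329, CG33306, CG8997, CG7916, CG7953 and CG7968, was higher throughout, with log2 ratios between 2.25 and 4.27. In it CG7916 was at 1235 at uracil 16 h and 62.9 at uracil 2 h, beside 215 at untreated 16 h and 129 at untreated 2 h.

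Circadian clock genes bear on the hour at which guts were taken, which the labels leave out. Of 11 clock genes tested, Pdfr was 2-fold higher and per 2-fold lower with uracil (median -0.02, which turned to 0.09 under scaling to the same column total and 0.03 when centred). Among all tested genes 7.01% were higher and 2.53% lower. The period gene per was at 16.3 at uracil 16 h and 46.2 at uracil 2 h, beside 48.4 at untreated 16 h and 26 at untreated 2 h. The timeless gene tim was at 597 at uracil 16 h and 649 at uracil 2 h, beside 1246 at untreated 16 h and 485 at untreated 2 h. For both partners of this repressor complex the untreated 16 h library was the highest, though for per only just above uracil 2 h, and uracil 16 h lay below uracil 2 h. The repressor gene vri was at 133 at uracil 16 h and 241 at uracil 2 h, beside 222 at untreated 16 h and 169 at untreated 2 h. The activator gene Clk differed less, at 73.6 at uracil 16 h and 59.7 at uracil 2 h, beside 46.3 at untreated 16 h and 64.4 at untreated 2 h. Hours of treatment and hour of day cannot be told apart in the uracil comparison.

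The design allows 1 test of time, that of a shift common to uracil and untreated guts. It was fitted with limma over 8568 genes with treatment as a covariate and asks for a difference larger than the disagreement of the treatments, which is the only residual. Since the uracil libraries enter the fit, overlap with the 637 genes is no independent support. At an adjusted p under 0.05, 16 genes rose with time (0.187%) and 20 fell (0.233%). All 16 were among the 468 higher genes (3.42% of them) and 19 of the 20 among the 169 lower genes (11.2%); the other was deltaTry. Without the trend of variance on level the fit called 0 genes in either direction (1270 at an unadjusted p under 0.05), and with each library scaled to the same column total it called 223 that rose and 85 that fell. edgeR on the recovered reads called 12 that rose and 13 that fell.

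The peritrophin-like gene CG7298 fell by 3.04 in log2 units (SE 0.234, limma adjusted p = 0.0187), lower in both 16 h libraries. Jon25Bii fell by 1.89 (SE 0.156, limma adjusted p = 0.0187) and GstD10 by 2.40 (SE 0.226, limma adjusted p = 0.019). Among genes that rose, the cuticle protein gene Cpr49Ae (chromosome 2R, 12402216 to 12405108) was at 67.5 at uracil 16 h and 0.236 at uracil 2 h, beside 23.5 at untreated 16 h and 0.254 at untreated 2 h, and rose by 5.04 (SE 0.411, limma adjusted p = 0.0187). The carotenoid receptor gene ninaD rose by 4.60 (SE 0.431, limma adjusted p = 0.019) and the maltase gene Mal-A7 by 1.84 (SE 0.184, limma adjusted p = 0.0218). Each was higher in both 16 h libraries. The tyrosine hydroxylase gene ple, whose product feeds dopamine and cuticle tanning, rose by 2.36 (SE 0.242, limma adjusted p = 0.0221), at 75.5 at uracil 16 h and 11.8 at uracil 2 h, beside 32.1 at untreated 16 h and 6.47 at untreated 2 h.

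Some genes of the same direction lay next to each other. Runs of at least 3 neighbouring genes of 1 direction, at most 50 kb apart, numbered 16 for higher genes and held 57 of 442 placed genes (12.9%), and 4 for lower genes with 13 of 164 (7.93%), genes that share all read counts with another left out. Many are families of related copies, such as LManIII, LManV and LManVI, the maltases Mal-A2, Mal-A3 and Mal-A4 on 2R, and the GstD genes. Others mix families, as in Jon44E, PGRP-SC1a and PGRP-SC1b on 2R between 8691448 and 8715094, all 3 of which were lower at untreated 16 h. CG11912, CG11911 and CG33127 on 2L lie within 4.73 kb, and CG11911 was at 2037 at uracil 16 h and 139 at uracil 2 h, beside 552 at untreated 16 h and 779 at untreated 2 h. Of 611 members with a position, those sharing read counts included, 143 overlap a gene on the other strand, and since no source used here states how strand entered the counting, reads of such pairs cannot be told apart.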

How the data were processed

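Poly(A) RNA of 4 midgut libraries, 1 per group, was analysed from 1 deposited table. Its signal values are what the authors call normalized counts. Per the submitters' processing notes, cutadapt 1.0, TopHat2 2.0.5, Bowtie, HTSeq and edgeR were used. No source used here gives their settings, a genome build, an annotation or how strand was treated. Deposited signals were whole multiples of the value of 1 read in that library (100.0% within 0.01 reads). Reads were recovered by division, and normalization was left as deposited.

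Lines sharing an ID (118 of 13646) were summed. Genes with a mean of at least 10 over both uracil libraries were kept, and 1 was added before log2. Intervals are exact (Clopper-Pearson) at 95%, and for the ratio alone a count of 0 was set to a floor of 3 reads. Symbols were looked up by ID (6320 of the 6672 tested genes) and positions in Ensembl release 115 (BDGP6.54), which need not be the authors' build. In 74 tested genes all 4 read counts equalled those of another gene; these stay in the totals but are not named or listed. The shared time effect used limma 3.58.1 (R 4.3.3) on log2(value + 1) of genes with a mean of at least 1 over the 4 libraries, additive in treatment and time, with trend and Benjamini-Hochberg adjustment. It has 1 residual degree of freedom and a prior of 5.29. edgeR 4.0.16 and DESeq2 1.42.0 on recovered reads were alternatives, and only the limma fit was run on simulated reads.

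The genes and gene lists were chosen with earlier results of these data known. A further 10 of the 66 lists (carboxypeptidases, astacins, aminoacylases, the 3R serine proteases, the SLC families, chitin-binding and ecdysteroid kinase-like genes) were added after values were seen, and 1 wrong member was removed from the pyrimidine list. Genes are named by rule: the 15 highest and 15 lowest log2 ratios, up to 4 called members of a list (or 2 of the highest mean where none was called), all clock genes and called markers, the 3 genes on each side of a threshold, the 10 largest differences between treatments each way, and genes in runs. Genes named from the limma test (ple, deltaTry), for their opposite directions, or in the closing observations were chosen after their values were seen. Some others, such as Myo61F, MRP, ci and Cad99C, were also named outside this rule. Promoter sequences were not analysed here.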

Additional observations from a re-analysis of the deposited data

Results flagged for a closer look

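With uracil, 22 genes were at least 2-fold higher at 16 h and at least 2-fold lower at 16 h without it, and 1 gene, Hsp22, was lower with uracil and higher without. These genes stand out because the time courses ran opposite ways in the 2 treatments. With 1 library per group the difference between treatments was not tested, and the values given are log2 ratios with uracil minus those without.

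The neighbouring serine protease genes on chromosome 3R differed by 10.43 for CG17475, 8.43 for CG31266, 7.81 for CG31265, 7.55 for CG4053 and 5.99 for CG31267. The protease genes Jon66Ci, CG17571, Jon65Aii, Jon44E and Jon65Ai differed by 4.77, 4.13, 3.23, 2.66 and 2.65. CG30047 differed by 7.08, the mannosidase gene LManVI by 7.04 and the sterol-binding gene Npc2c by 5.19. The amidase genes PGRP-SC1b and PGRP-SC1a differed by 3.91 and 3.73.

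Among genes of metabolism and transport, the cytochrome genes Cyp4ad1 and Cyp4g1 differed by 4.02 and 2.77, the glycosyltransferase gene Ugt301D1 by 2.76, the acyl-CoA binding gene Acbp3 by 2.88 and the nucleoside transporter gene Ent3 by 2.39. Ag5r2 differed by 2.80 and the lectin gene lectin-37Da by 2.23. Hsp22, the gene of the opposite kind, differed by -2.81.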

How the results depend on the processing

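No gene 2-fold apart with uracil turned direction under any of the 7 other settings of pseudocount, filter, scaling or IDs. None of these settings could have turned such a gene. Pseudocount, filter and ID choices keep the sign of a ratio. Scaling moved the median log2 ratio only from -0.05 to 0.06, and centring moved ratios by less. With uracil, 468 higher and 169 lower genes became 839 and 253 at a mean of at least 1, and 116 and 87 at a mean of at least 100, where 57.1% were higher. Without uracil, 139 higher and 163 lower genes became 234 and 245 at a mean of at least 1, 30 and 75 at a mean of at least 100, 48 and 105 with a pseudocount of 10, and 244 higher genes under scaling to the same column total. The 92 genes higher in both treatments became 154, 21 and 30 under the first 3 of these settings, and the 64 lower in both became 29 at a mean of at least 100. The 16 genes that rose and 20 that fell with time by limma became 223 and 85 under scaling to the same column total, 0 and 0 without trend (1270 genes at an unadjusted p under 0.05, against 1371 with trend), 12 and 13 by edgeR, and 137 and 160 by DESeq2. At a mean of at least 100 the medians of 14 of 55 lists turned, and 4 of 63 at a mean of at least 1. The cuticle median became -0.77 and the serine protease cluster median -1.57, each from the 1 gene left, the trypsin-type median -0.47 (9 genes), lipid digestion -0.22 (6), mucins 2.13 (5), fat body -0.25 (4), pyrimidine -0.24 (3) and lipogenesis -0.47 (9). The causes of the shifts under scaling, without trend and by DESeq2 were not tested. Of 1538 values of named genes under other settings, 293 left the counting interval. Changes of direction were counted only for named genes 2-fold apart with uracil, and there were 0. No paired analysis was possible because each group had 1 library and so no replicate numbers to block on; the limma fit has treatment as its covariate. No library could be left out either. Depth limits most the 10 higher genes with 3 reads or fewer at uracil 2 h, whose folds are known only within wide intervals or as a lower bound.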

Other observations

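Several genes with known roles in the egg were among the 169 lower genes, and were picked out after their values were seen. The thioredoxin gene dhd was at 36.5 at uracil 16 h and 114 at uracil 2 h, beside 1.34 at untreated 16 h and 23.7 at untreated 2 h. The gene wisp, for a poly(A) polymerase of the egg, was at 11.9 at uracil 16 h and 33.8 at uracil 2 h, beside 0.701 at untreated 16 h and 7.74 at untreated 2 h. In both, levels were lower at 16 h in each treatment and higher with uracil at each time. The oocyte marker osk had a different order, at 29.6 at uracil 16 h and 23.3 at uracil 2 h, beside 0.175 at untreated 16 h and 3.8 at untreated 2 h.

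The rhodopsin gene ninaE, a photoreceptor marker, was at 0.665 at uracil 16 h and 0.118 at uracil 2 h, beside 22.5 at untreated 16 h and 0 at untreated 2 h. It was high in 1 library, untreated 16 h. On chromosome 4, uracil 16 h was 2-fold or more above uracil 2 h for 10 of 54 tested genes (18.5%) and below for 0, against 7.01% higher over all chromosomes; they include the muscle gene bt, the calcium-dependent kinase gene CaMKI and the synaptic gene unc-13. The share of higher genes ran between 5.17% and 8.7% on X, 2L, 2R, 3L and 3R.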
